A study of Mus musculus with 32 samples.

Results

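Whole-cochlea RNA was compared between mice killed 24 h after noise and mice without noise, using the 11 input libraries of these groups out of 16 inputs and 32 libraries in all. An input is total RNA from an aliquot of homogenised cochlea, taken before any pull-down, so it holds RNA of every cell type of the organ. The 24 h group held 3 libraries of the strain PrestinCre/+;RiboTagHA/+ and 3 of the strain Sox2Cre/+;RiboTagHA/+, from mice given 2 h of noise at 105 dB SPL. The control group held 3 Prestin and 2 Sox2 libraries from mice given no noise. All mice, controls included, were 10 weeks old and carried a Cre driver and the RiboTag allele, which puts an HA tag on a ribosomal protein where Cre has acted; the design text names both drivers as CreERT2 on a CBA background. Cre was driven by Prestin, a gene of outer hair cells, or by Sox2, a gene of supporting cells, and an input library does not depend on which cells were tagged. How many cochleae or animals went into a library is not given in the sources used here.

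The 24 h inputs showed a broad rise of interferon-stimulated genes, chemokines, antigen-presentation genes and acute-phase genes, and a smaller set of falls that included Otos, S100b and Tfrc. Among 14204 genes tested, 631 (4.44%) were called: 537 rose and 94 fell, which is 3.78% and 0.662% of the genes, with strain as a term in the model. Counts of list members against control in this fit stand beside these shares. Values are TPM, in which reads are scaled by gene length and library total, and were tested as log2(TPM + 1) with limma, with Benjamini-Hochberg adjustment over all genes tested and a threshold of 0.05. Fold changes are on that log2(TPM + 1) scale, 24 h over control, with the standard error of the fit, and understate the change of low genes. TPM keeps no read depth, so no counting interval can be given. In bulk RNA, a change in the number of cells of a type and a change in RNA per cell cannot be told apart. The labels say that libraries were biological triplicates but tie none of them to an animal, so the p-values measure the spread between these libraries.

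The libraries were alike in their general measures. Between 18890 and 20060 genes were above 0 at 24 h and between 18820 and 19520 in controls, and mitochondrially encoded genes held 21.45% to 24.18% of TPM at 24 h and 20.47% to 25.13% in controls. Hair cell, supporting cell and lateral wall genes were present in all 11 inputs: Pou4f3, a hair cell transcription factor, had 12.7 to 29.9 TPM at 24 h against 13.2 to 27.7 TPM in controls, and Gjb2, the connexin 26 gap junction gene, had 1806 to 2195 TPM at 24 h against 1263 to 1664 TPM in controls. Sox2 24 h replicates 1 and 2 stood apart by skeletal muscle RNA: the summed level of 10 muscle genes was 1930 and 2664 TPM there, against 70.3 to 123 TPM in the other 4 inputs at 24 h and 86.4 to 238 TPM in controls. Without both libraries 492 genes were called, 432 higher and 60 lower.

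As background, interferons bind receptors on the cell surface that activate transcription factors, and these enter the nucleus and switch on interferon-stimulated genes through short DNA elements, the ISRE and, for interferon gamma, the GAS. NF-kB drives many chemokine and adhesion genes. In the cochlea, acoustic injury is known to draw monocytes from the blood into the lateral wall and around the sensory epithelium, where resident macrophages are also present.

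In each of the 3 genes that mark the 24 h cochlea, every input at 24 h lay above every control, a separation that 4.17% of all genes tested showed upwards and 0.767% downwards. Cxcl10, a chemokine that attracts T and NK cells through CXCR3, lies at chr5:92346638-92348889 (GRCm38) and had 344, 146 and 170.3 TPM in the Prestin 24 h inputs and 232, 221 and 144 TPM in the Sox2 24 h inputs, against 15.99, 5.13 and 2.95 TPM in the Prestin control inputs and 5.53 and 20.2 TPM in the Sox2 control inputs. The change was 4.49 ± 0.40 log2 (adjusted p = 1.46e-05), the largest rise among the genes that passed the naming rule. Gbp2, a guanylate-binding protein that acts against pathogens inside cells, lies at chr3:142620602-142638008 and had 38.96, 25.96 and 22.5 TPM in the Prestin 24 h inputs and 23.1, 32.96 and 20.9 TPM in the Sox2 24 h inputs, against 4.18, 3.24 and 3.12 TPM in the Prestin control inputs and 2.16 and 3.41 TPM in the Sox2 control inputs. It rose by 2.74 ± 0.18 log2 (adjusted p = 1.09e-06). Cd68, a lysosomal membrane glycoprotein abundant in macrophages, lies at chr11:69664213-69666153 and had 133, 153 and 139 TPM in the Prestin 24 h inputs and 71.1, 179 and 194 TPM in the Sox2 24 h inputs, against 15.2, 13.2 and 12.4 TPM in the Prestin control inputs and 19.3 and 15.3 TPM in the Sox2 control inputs. Its change was 3.15 ± 0.26 log2 (adjusted p = 7.24e-06), and Sox2 24 h replicate 1 was the lowest of the 6 inputs at 24 h.

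**Figure D1:**
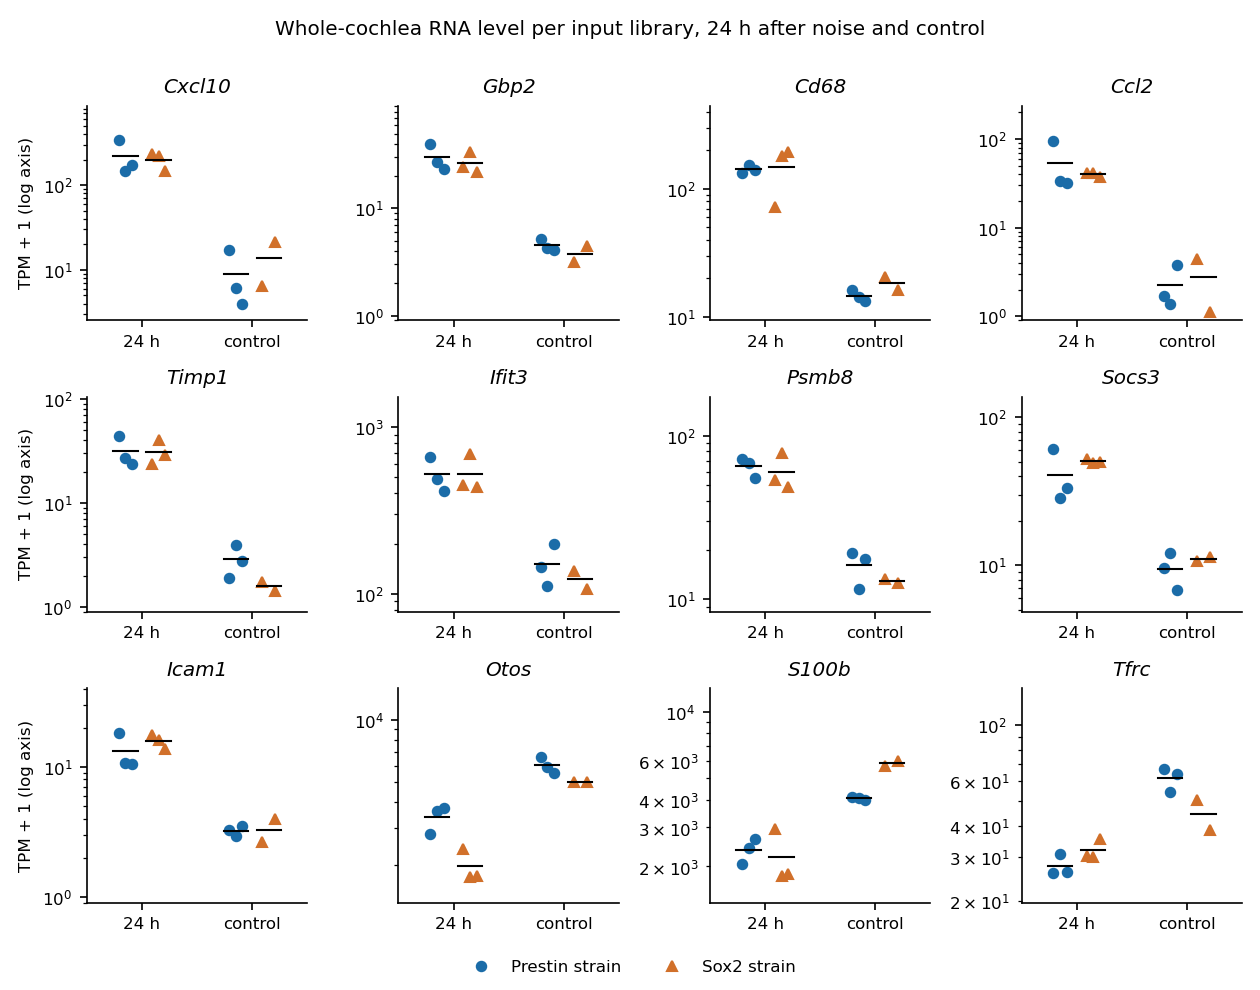
Level of 12 genes in each input library, as TPM + 1 on a log axis, 24 h after noise on the left and control on the right of each panel; circles are Prestin libraries, triangles Sox2 libraries and bars the mean of each strain and group. Cxcl10 spans 144 to 344 TPM at 24 h and 2.95 to 20.2 TPM in controls; Otos, S100b and Tfrc lie lower at 24 h than in every control.

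The windows just upstream of these genes were read for 3 elements, because textbook targets of interferon and NF-kB were among the largest rises. Windows run from 250 bases before to 50 bases after the annotated start (RefSeq, GRCm38.p6), and are printed 5′ to 3′ on the gene's strand with matches in capitals. The letters searched on both strands were GAAA, any 2 bases and GAAA for the ISRE, TTCNNNGAA for the GAS, and GGGA, any base, TT, any base and CC for NF-kB. Shown are the 3 marker genes, Psmb8, Socs3 and, chosen after the matches were seen, Isg15. Cxcl10 (chr5:92348840-92349139, minus strand) and Cd68 (chr11:69666121-69666420, minus strand) are shown beside Gbp2 (chr3:142620413-142620712, plus strand), Psmb8 (chr17:34197945-34198244, plus strand), Socs3 (chr11:117969317-117969616, minus strand) and Isg15 (chr4:156200769-156201068, minus strand).
Cxcl10: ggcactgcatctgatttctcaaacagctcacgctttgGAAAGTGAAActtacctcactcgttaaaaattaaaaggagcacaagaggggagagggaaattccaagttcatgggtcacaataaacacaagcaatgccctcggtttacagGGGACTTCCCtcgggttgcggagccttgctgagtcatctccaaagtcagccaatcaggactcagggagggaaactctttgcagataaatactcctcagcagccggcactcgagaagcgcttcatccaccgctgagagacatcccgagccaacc
Gbp2: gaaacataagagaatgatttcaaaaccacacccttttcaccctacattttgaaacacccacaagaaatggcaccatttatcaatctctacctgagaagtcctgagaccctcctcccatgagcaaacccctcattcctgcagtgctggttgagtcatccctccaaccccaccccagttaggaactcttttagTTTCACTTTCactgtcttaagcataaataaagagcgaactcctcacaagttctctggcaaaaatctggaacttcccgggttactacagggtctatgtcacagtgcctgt
Cd68: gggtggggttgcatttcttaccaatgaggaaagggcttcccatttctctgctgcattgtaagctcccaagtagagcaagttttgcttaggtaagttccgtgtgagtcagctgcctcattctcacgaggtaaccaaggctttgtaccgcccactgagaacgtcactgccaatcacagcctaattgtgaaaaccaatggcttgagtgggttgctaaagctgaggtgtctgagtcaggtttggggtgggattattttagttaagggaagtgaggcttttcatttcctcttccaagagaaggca
Psmb8: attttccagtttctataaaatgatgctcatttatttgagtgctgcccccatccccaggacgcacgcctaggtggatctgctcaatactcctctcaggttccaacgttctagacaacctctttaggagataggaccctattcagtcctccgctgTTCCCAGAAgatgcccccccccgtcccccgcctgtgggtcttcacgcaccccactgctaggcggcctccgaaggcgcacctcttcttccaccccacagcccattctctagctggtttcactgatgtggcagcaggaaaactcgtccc
Socs3: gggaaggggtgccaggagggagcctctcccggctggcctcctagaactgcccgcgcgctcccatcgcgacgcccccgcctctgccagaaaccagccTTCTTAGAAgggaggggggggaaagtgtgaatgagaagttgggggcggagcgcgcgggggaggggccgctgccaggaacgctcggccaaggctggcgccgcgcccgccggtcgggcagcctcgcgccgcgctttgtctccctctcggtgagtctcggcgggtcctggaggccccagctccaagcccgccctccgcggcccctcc
Isg15: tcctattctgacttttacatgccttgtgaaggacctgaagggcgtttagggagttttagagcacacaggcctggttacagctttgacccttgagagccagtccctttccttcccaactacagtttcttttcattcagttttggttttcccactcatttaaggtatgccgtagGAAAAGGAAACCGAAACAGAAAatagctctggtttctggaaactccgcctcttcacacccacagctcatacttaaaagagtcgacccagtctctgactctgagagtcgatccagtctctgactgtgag

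The Cxcl10 window holds one ISRE match, GAAAGTGAAA, starting 213 bases before the start, and one NF-kB match, GGGACTTCCC, starting 103 bases before it. The Gbp2 window holds an ISRE match on the opposite strand, TTTCACTTTC, that begins 59 bases before the start. In Isg15 there are 3 ISRE matches that overlap each other, the first of them 78 bases before the start. Psmb8 and Socs3 each hold a GAS match, TTCCCAGAA 97 bases and TTCTTAGAA 154 bases before the start. These letters do not occur in the Cd68 window. Of the 537 genes that rose, 401 have a window, and 49 of these (12.2%) hold an ISRE match, 44 a GAS match and 15 (3.74%) an NF-kB match in any of their windows. Among all 9768 tested genes with a window the shares were 3.44%, 7.79% and 1.43%, and among the 74 of the 94 genes that fell they were 4.05%, 9.46% and 1.35%. Among all 32851 windows of the table, 3.44%, 8.3% and 1.2% hold the ISRE, the GAS and the NF-kB letters. Where the rise was 1 log2 or more, 26 of 96 genes (27.1%) hold an ISRE match. Of the interferon-inducible GTPases tested, 9 of 10 with a window hold one, against 16 of 38 antiviral genes and 0 of 7 CC chemokines. ISRE and GAS matches overlap each other in 4 of the 401 genes. These matches describe the letters and not binding.

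Chemokines, the secreted ligands that steer leukocytes, held 4 of the 5 largest rises among named genes. Of 12 CC chemokines tested (8 more were below the filter), 6 rose, and their median change was 1.21 log2, against 0.0193 over all genes tested. Ccl2, the main monocyte attractant, had 93.7, 32.8 and 30.96 TPM in the Prestin 24 h inputs and 40.5, 40.7 and 35.99 TPM in the Sox2 24 h inputs, against 0.693, 0.368 and 2.8 TPM in the Prestin control inputs and 3.48 and 0.129 TPM in the Sox2 control inputs. It rose by 4.35 ± 0.43 log2 (adjusted p = 2.82e-05), with Prestin 24 h replicate 1 the highest library. Ccl7, a second ligand of the monocyte receptor CCR2, had 17.97 to 41.6 TPM (median 22.5) in the 6 inputs at 24 h, against 0 to 1.22 TPM (median 0.134) in the 5 control inputs, and Ccl5, which attracts T cells and monocytes, had 9.96 to 22.7 TPM (median 15.9) in the 6 inputs at 24 h, against 0 to 1.98 TPM (median 0.779) in the 5 control inputs. Neither gene's groups overlap, and the changes were 4.19 and 3.20 log2 (adjusted p = 2.15e-05 and 9.39e-06). Ccl12, another CCR2 ligand in the mouse, had 22.3 to 40.5 TPM at 24 h against 2.67 to 5.35 TPM in controls; with a pseudocount of 0.1 its adjusted p was 0.0714. Ccl3 and Ccl4, the macrophage inflammatory proteins, had no more than 5.44 and 4.82 TPM in any input at 24 h. The adjusted p of Ccl3 was 0.0505 without Prestin control replicate 3 and 0.0562 without Sox2 control replicate 1, and without both Sox2 24 h inputs with muscle RNA it was 0.0562 for Ccl3 and 0.055 for Ccl4.

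Among 11 CXC and CX3C chemokines tested, 4 rose. Beside Cxcl10 these were Cxcl11, also a CXCR3 ligand, with 3.72 to 15.9 TPM at 24 h against 0.327 to 0.942 TPM in controls, and Cxcl16 and Cxcl12, with changes of 0.84 and 0.62 log2; without both Sox2 24 h inputs with muscle RNA the adjusted p of Cxcl12 was 0.0504. The neutrophil attractant Cxcl1 had 2.09 to 5.78 TPM at 24 h against 0 to 0.739 TPM in controls and did not pass (adjusted p = 0.0973); it passed when only the inputs at 24 h and control were fitted (adjusted p = 0.000332), without both Sox2 6 h inputs (9.18e-05) and with a pseudocount of 0.1 (0.0478). Cxcl9, the remaining CXCR3 ligand, was below the filter. Ccr2, the receptor of Ccl2, Ccl7 and Ccl12, was below the filter.

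The interferon genes themselves were scarcely measurable, while their targets rose together. Of 35 listed ligands, receptors and signalling genes, 27 passed the filter and 9 rose, with a median change of 0.29 log2. Ifnb1, Ifng, Ifna4, Ifne, Ifnl2 and Ifnl3 were listed at 0 in all 11 inputs. So were mt-Atp8 and mt-Nd4l, which every cell uses, so a listed 0 does not by itself show that RNA was absent. Whether the interferon zeros reflect absent RNA was not tested. Irf7, a transcription factor that amplifies type I interferon production, had 204, 165 and 134 TPM in the Prestin 24 h inputs and 164, 255 and 142 TPM in the Sox2 24 h inputs, against 38.97, 27.3 and 66.7 TPM in the Prestin control inputs and 39.5 and 46.3 TPM in the Sox2 control inputs. It rose by 2.03 ± 0.28 log2 (adjusted p = 0.000526). Irf1, induced by interferon gamma and NF-kB, rose by 1.27 ± 0.19 log2, and Stat2, a subunit of the factor that binds the ISRE, by 0.90 log2. The pattern-recognition genes Tlr3, Tlr2, Myd88 and Sting1 rose by 0.61, 1.04, 0.99 and 0.70 log2.

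Of 50 antiviral interferon-stimulated genes that passed the filter, out of 57 listed, 44 rose and 0 fell, with a median change of 1.10 log2. Zbp1, a sensor of Z-form nucleic acid, had 6.17 to 11.5 TPM at 24 h against 0.198 to 1.52 TPM in controls and rose by 2.31 ± 0.21 log2 (adjusted p = 1.51e-05). Ifitm1 and Ifitm3, membrane proteins that block virus entry, rose by 2.22 ± 0.13 and 1.73 ± 0.14 log2. Ifitm3 was abundant, at 3121 ± 516 TPM at 24 h (SD, n = 6) and 951 ± 159 TPM in controls (SD, n = 5); Ifitm2 rose by 1.33 log2. Isg15, a ubiquitin-like protein joined to other proteins, had 561, 407 and 372 TPM in the Prestin 24 h inputs and 333, 482 and 271 TPM in the Sox2 24 h inputs, against 107, 78.5 and 191 TPM in the Prestin control inputs and 75.03 and 71.1 TPM in the Sox2 control inputs. Its change was 2.05 ± 0.22 log2, and no input at 24 h fell within the control range. Among the IFIT genes, Ifit3 had 415 to 689 TPM (median 466) in the 6 inputs at 24 h. In the 5 control inputs it had 106 to 197 TPM (median 135). Ifit1, Ifit2, Ifit3 and Ifit3b rose by 1.87, 1.45, 1.94 and 1.88 log2. Rsad2 (viperin), Usp18, which removes Isg15 from its targets, and Bst2 (tetherin) rose by 2.15, 1.43 and 1.42 log2. The RNA sensors Ifih1, Ddx58 and Dhx58 rose by 1.14, 1.01 and 1.55 log2. Ifit3 and Ifit3b, Tgtp1 and Tgtp2, the Ifitm genes and the class I genes below are near copies, and how the authors' counting split reads between copies is not given in the sources used here.

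Interferon-inducible GTPases guard cells by attacking vacuoles that hold microbes. Of 13 tested, 11 rose, with a median of 1.13 log2, and in all 13 the libraries at 24 h lay above the controls within each strain, which held for 6.92% of all genes tested. After Gbp2, the changes were 2.30 log2 for Iigp1, 2.21 for Tgtp1, 1.91 for Gbp3 and 1.30 for Irgm1. Irgm1, the most abundant, had 65.6 to 104 TPM at 24 h against 26.5 to 40.4 TPM in controls. Gbp5 and Gbp6, listed in the Sox2 files alone, had 2.31 to 3.50 and 2.77 to 5.27 TPM in the 3 Sox2 inputs at 24 h, against 0.431 to 0.549 and 1.05 to 1.44 TPM in the 2 Sox2 controls.

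Most genes of the path that loads peptides on MHC class I rose. Psmb8, an immunoproteasome subunit that cuts peptides for presentation, had 70.8, 66.5 and 54.4 TPM in the Prestin 24 h inputs and 52.6, 77.1 and 47.7 TPM in the Sox2 24 h inputs, against 18.2, 10.6 and 16.6 TPM in the Prestin control inputs and 12.2 and 11.5 TPM in the Sox2 control inputs. It rose by 2.14 ± 0.22 log2 (adjusted p = 3.93e-05); the lowest input at 24 h had more than 2 times the level of the highest control. Psmb10 and the activator subunit Psme1 rose by 1.15 and 0.59 log2. Among the 6 proteasome genes listed, 4 rose, of which Psmb9 had an adjusted p of 0.0506 without Sox2 control replicate 4 and 0.0896 with a pseudocount of 0.1. Of 17 class I genes tested, 14 rose, with a median of 0.83 log2. The peptide transporter subunits Tap1 and Tap2 and the loading factor Tapbp rose by 1.31, 0.81 and 0.83 log2. H2-K1, a class I heavy chain, had 289.9 to 453 TPM (median 383) in the 6 inputs at 24 h, against 148 to 201 TPM (median 179) in the 5 control inputs, a change of 1.03 ± 0.10 log2, and the light chain B2m rose by 0.61 ± 0.08 log2. Of the 7 class II genes tested, which professional antigen-presenting cells use, only H2-DMb1 was called (0.53 ± 0.13 log2), a call lost under 10 of 22 alternatives. H2-Aa, an alpha chain of class II, had 4.27 to 9.51 TPM at 24 h against 5.59 to 12.2 TPM in controls, and H2-Ab1, a beta chain, had 1.8 to 2.83 TPM at 24 h against 1.93 to 3.92 TPM in controls.

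**Figure D2:**
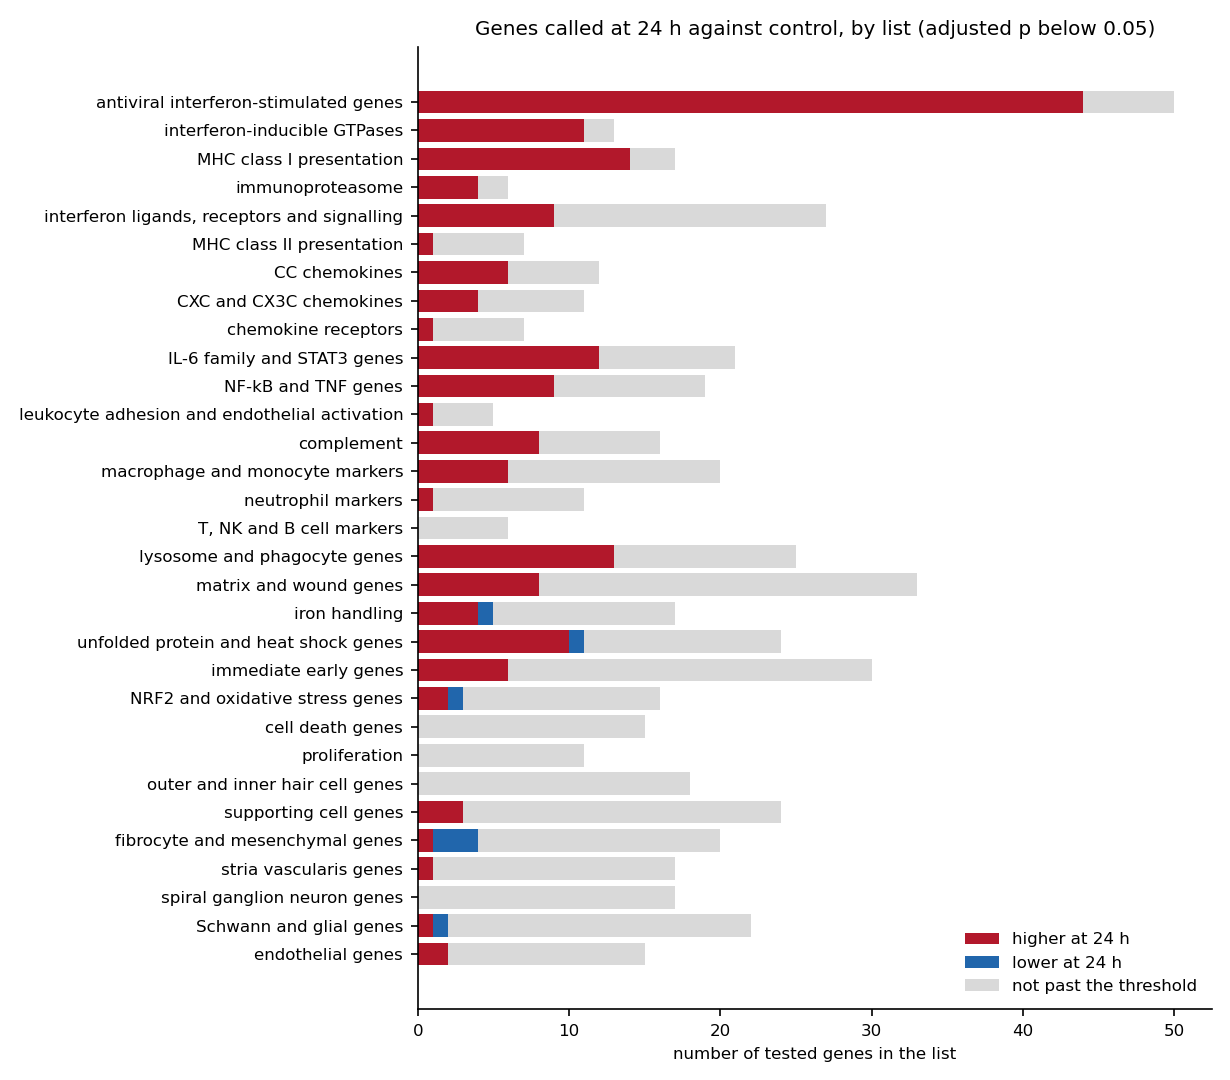
Number of tested genes in each of 31 gene lists that were higher at 24 h (red), lower at 24 h (blue) or not past the threshold (grey), from the joint fit of both strains. The antiviral list has 44 of 50 genes higher. The hair cell, neuron, cell death and proliferation lists have none called, against 4.44% of all genes tested.

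Genes of the IL-6 and STAT3 pathway, which drives the acute-phase response, rose in 12 of 21 tested members, against 3.78% of all genes tested. Socs3, the feedback inhibitor of STAT3 signalling, had 60.3, 27.3 and 32.4 TPM in the Prestin 24 h inputs and 51.1, 48.4 and 49.05 TPM in the Sox2 24 h inputs, against 8.61, 11.1 and 5.8 TPM in the Prestin control inputs and 9.68 and 10.4 TPM in the Sox2 control inputs. All 6 inputs at 24 h exceeded all 5 controls, and the change was 2.12 ± 0.19 log2 (adjusted p = 1.18e-05). Stat3 and the receptor subunits Osmr and Il6st rose by 0.80, 1.13 and 0.54 log2, and the transcription factors Cebpd and Cebpb by 1.47 and 0.96 log2. Serpina3n, an acute-phase protease inhibitor, had 19.6, 12.4 and 13.01 TPM in the Prestin 24 h inputs and 21.03, 20.2 and 27.9 TPM in the Sox2 24 h inputs, against 0.275, 0.607 and 0.62 TPM in the Prestin control inputs and 7.49 and 10.4 TPM in the Sox2 control inputs. Its Prestin controls were all below 1 TPM and its Sox2 controls were not, and the joint change was 2.49 ± 0.41 log2. Lcn2, lipocalin 2, which binds bacterial iron carriers, rose by 1.83 ± 0.38 log2, and Saa3, an acute-phase apolipoprotein, was called with 1.27 to 4.77 TPM at 24 h, while all 5 controls list it at 0. The ligands Il6, Lif, Osm, Il11 and Clcf1 were below the filter.

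In the NF-kB and TNF list, 9 of 19 tested genes rose, with a median of 0.72 log2, where 3.78% of all genes tested rose. Csf1, the growth factor of macrophages, had 11.6 to 18.4 TPM at 24 h against 4.38 to 6.47 TPM in controls and rose by 1.30 ± 0.14 log2. The NF-kB subunits Nfkb2 and Relb rose by 1.07 and 0.81 log2, and the TNF-family receptors Tnfrsf12a and Tnfrsf1a by 1.05 and 0.74 log2. Tnf, Il1a and Il1b were below the filter. Icam1, which lets leukocytes attach to endothelium, had 17.3, 9.63 and 9.5 TPM in the Prestin 24 h inputs and 16.5, 15.1 and 12.6 TPM in the Sox2 24 h inputs, against 2.26, 1.92 and 2.51 TPM in the Prestin control inputs and 1.65 and 2.94 TPM in the Sox2 control inputs. The groups do not overlap, and the change was 2.13 ± 0.21 log2 (adjusted p = 3.17e-05). It was the only one of 5 tested adhesion genes to pass; Sele and Selp, the endothelial selectins, were below the filter. Glycam1, a mucin-like ligand of L-selectin, had 38.9, 13.97 and 11.6 TPM in the Prestin 24 h inputs and 35.7, 30.03 and 11.5 TPM in the Sox2 24 h inputs, against 3.15, 0.795 and 2.98 TPM in the Prestin control inputs and 4.04 and 0.209 TPM in the Sox2 control inputs, a rise of 2.97 ± 0.45 log2 (adjusted p = 0.00106). Ch25h, which makes the immune sterol 25-hydroxycholesterol, had 19.1 to 26.4 TPM at 24 h against 1.88 to 6.32 TPM in controls and rose by 2.32 ± 0.24 log2. BC023105 also stood among the 15 largest rises, at 2.50 log2.

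Complement and phagocyte genes rose in part, where 3.78% of all genes tested rose. Of 16 complement genes tested 8 rose, from 0.69 log2 for C1qa to 1.32 ± 0.10 log2 for C4b, which carries the classical cascade forward. C4b had 13.9 to 21.1 TPM (median 18.6) in the 6 inputs at 24 h, against 5.74 to 7.8 TPM (median 6.68) in the 5 control inputs. C1qb, a part of the molecule that starts the cascade, rose by 0.99 log2, and Serping1, an inhibitor of that step, by 0.73 log2. Of 25 lysosome and phagocyte genes tested, 13 rose, 11 of them by less than 1 log2. Ctsb, cathepsin B, had 392 to 523 TPM at 24 h against 258 to 287 TPM in controls and rose by 0.64 ± 0.06 log2, while Lgals3, galectin 3, had 5.7 to 9.95 TPM at 24 h against 0.414 to 2.21 TPM in controls and rose by 2.23 ± 0.20 log2.

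Macrophage markers moved unevenly, where 3.78% of all genes tested rose. Of 30 markers listed, 20 passed the filter and 6 rose: Cd68, the LPS co-receptor Cd14 (1.52 log2), the Fc receptor Fcgr1 (1.13), Tlr2 (1.04), C1qb and C1qa, of which Cd68, Tlr2, C1qa and C1qb also stand in other lists. Csf1r, the receptor that macrophages need to survive, had 5.14, 5.2 and 5.28 TPM in the Prestin 24 h inputs and 5.64, 5.51 and 6.26 TPM in the Sox2 24 h inputs, against 3.83, 5.27 and 5.17 TPM in the Prestin control inputs and 7.07 and 7.39 TPM in the Sox2 control inputs. Its change was -0.06 ± 0.10 log2 (adjusted p = 0.844), and the groups overlap. Lyz2, Tyrobp, Mpeg1, Ctss and Laptm5, all abundant in macrophages, had changes of 0.46, 0.31, 0.45, 0.17 and 0.13 log2 and did not pass. The summed level of the 30 markers was 522 to 735 TPM at 24 h and 265 to 367 TPM in controls, and without Cd68 it was 431 to 541 TPM and 250.3 to 348 TPM. Adgre1, Ptprc, Itgam, Cx3cr1 and Ccr2, which define macrophages, leukocytes and monocytes, were below the filter. The genes next to Cd68 on chromosome 11 were not called: Mpdu1 had a change of 0.18 ± 0.10 log2 and Eif4a1 one of 0.07 ± 0.17 log2.

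Few markers of other leukocytes passed, in short lists, where 4.44% of all genes tested did. Among 11 neutrophil markers tested, Lcn2 alone rose, and S100a8 and S100a9, calprotectin subunits that neutrophils store, had 21.7 to 151 TPM at 24 h against 49.2 to 257 TPM in controls, and 8.72 to 57.8 TPM at 24 h against 27.4 to 120.0 TPM in controls. The summed neutrophil level was 88.4 to 280.0 TPM at 24 h and 114 to 498 TPM in controls, with overlapping groups. Of the T, NK and B cell markers, 6 of 21 passed the filter and none was called; Cd3d, Cd3e, Cd3g, Cd8a and Gzmb were below it, and the summed level was 20.3 to 55.9 TPM at 24 h and 23.1 to 98.7 TPM in controls. Siglech, a marker of plasmacytoid dendritic cells that microglia also carry, fell by 0.974 on the log2 scale, to 0.545 TPM at 24 h, against 1.96 TPM in controls. The part that any change in cell numbers had in the rises above was not tested.

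**Figure D3:**
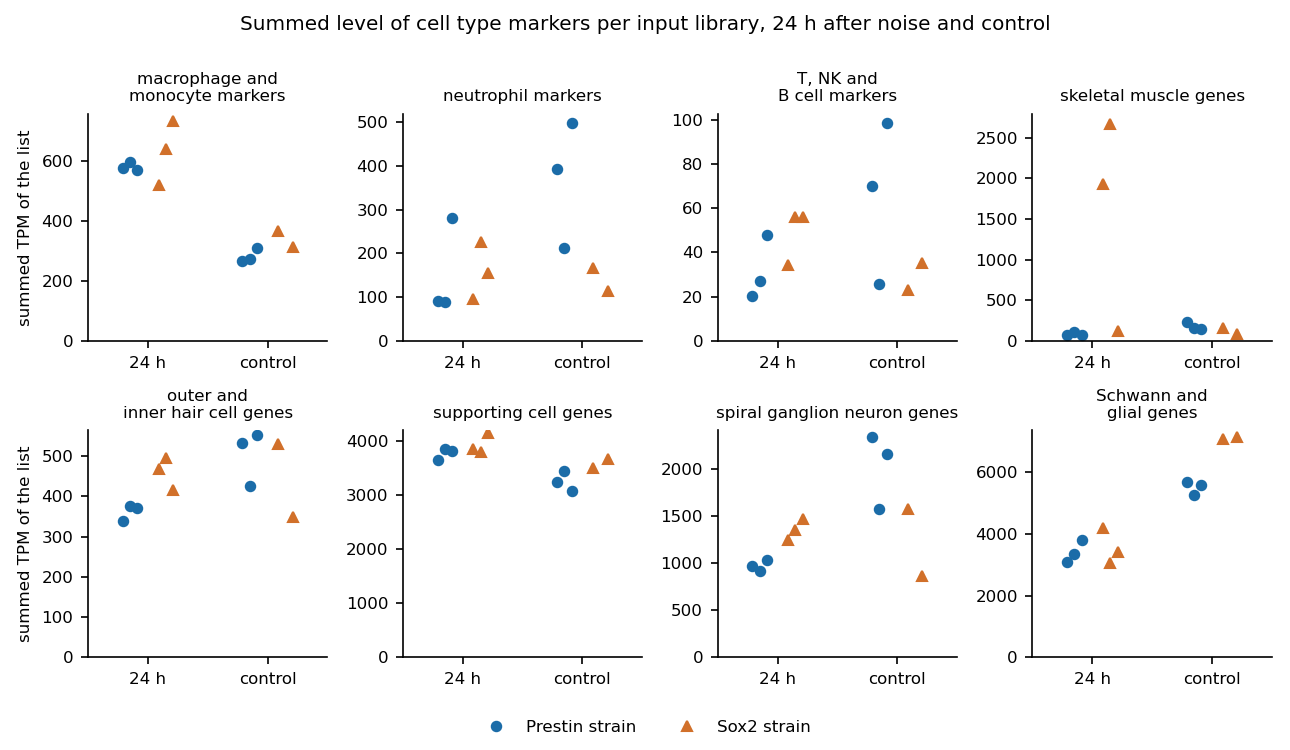
Summed TPM of 8 cell type marker lists in each input library, 24 h after noise on the left and control on the right; circles are Prestin and triangles Sox2 libraries. The macrophage sums at 24 h all lie above the controls, the neutrophil sums overlap, and 2 Sox2 inputs at 24 h carry the skeletal muscle RNA.

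Matrix and wound genes rose in 8 of 33 tested members. Timp1, an inhibitor of matrix metalloproteinases, had 42.9, 26.2 and 22.6 TPM in the Prestin 24 h inputs and 22.5, 39.1 and 28.03 TPM in the Sox2 24 h inputs, against 0.913, 2.93 and 1.76 TPM in the Prestin control inputs and 0.716 and 0.426 TPM in the Sox2 control inputs. It rose by 3.81 ± 0.28 log2 (adjusted p = 2.58e-06) with a wide gap between the groups. Mmp3, stromelysin 1, had 2.89 to 6.33 TPM at 24 h against 0 to 0.273 TPM in controls, and Sfrp4, a secreted Wnt antagonist, rose by 1.60 ± 0.09 log2. Spp1, osteopontin, was the most abundant of the risers named here, at 6379 ± 830.1 TPM at 24 h (SD, n = 6) and 4082 ± 317 TPM in controls (SD, n = 5), a change of 0.66 ± 0.07 log2. In the iron list 4 of 17 tested genes rose and 1 fell: ceruloplasmin (Cp) rose by 0.83 ± 0.13 log2, with 111 to 140.0 TPM at 24 h against 57.3 to 83.8 TPM in controls, and the ferrireductase Steap3 by 0.79 log2, while Tfrc, the transferrin receptor, had 24.9, 29.9 and 25.1 TPM in the Prestin 24 h inputs and 29.2, 29.02 and 34.3 TPM in the Sox2 24 h inputs, against 65.9, 53.6 and 63.2 TPM in the Prestin control inputs and 49.7 and 37.3 TPM in the Sox2 control inputs. Tfrc fell by 0.867 on the log2 scale (adjusted p = 0.00182). Tfrc is also high in red cell precursors, and the summed level of 9 erythroid genes was 1056 to 1786 TPM at 24 h and 1821 to 4159 TPM in controls, with no overlap; its part in the fall of Tfrc was not tested. Of 24 unfolded protein and heat shock genes, 10 rose and Atf4 fell, a call lost in 12 of 22 alternatives; among the rises were Chac1 (1.33 ± 0.20 log2), the chaperone Hspa5 (0.41 ± 0.07) and the disulfide isomerase Pdia4 (0.53 ± 0.06). None of 15 cell death genes, 11 proliferation genes and 15 clock genes tested was called, against 4.44% of all genes tested. Lists this short cannot set 0 calls apart from that share. With only the inputs at 24 h and control fitted, the cell death gene Ripk3 passed in limma (adjusted p = 0.02). The clock gene Dbp passed there too (adjusted p = 0.0395), and both were higher at 24 h.

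The falls were fewer and smaller: 4 of the 94 genes fell by 1 log2 or more, against 128 of 537 that rose that far. The number of falls depends on single libraries: it was 46 without Sox2 control replicate 1, 55 and 59 without Prestin control replicates 3 and 2, 56 without Prestin 24 h replicate 1 and 173 without Sox2 control replicate 4. It was 60 without both Sox2 24 h inputs with muscle RNA, 178 without both Sox2 6 h inputs and 209 when only the inputs at 24 h and control were fitted. Otos, otospiralin, a protein of cochlear fibrocytes, had 2819, 3645 and 3750.4 TPM in the Prestin 24 h inputs and 2383, 1760.1 and 1773 TPM in the Sox2 24 h inputs, against 6624, 5939.6 and 5559 TPM in the Prestin control inputs and 5023 and 5043 TPM in the Sox2 control inputs. All 6 inputs at 24 h lay below all controls, the Sox2 inputs lowest, and the change was -1.08 ± 0.12 log2 (adjusted p = 7.77e-05). S100b, a calcium-binding protein of glia and supporting cells, had 2054, 2412 and 2653 TPM in the Prestin 24 h inputs and 2958, 1818 and 1845 TPM in the Sox2 24 h inputs, against 4114, 4093 and 3997 TPM in the Prestin control inputs and 5711 and 6009 TPM in the Sox2 control inputs. Its change was -1.09 ± 0.15 log2 (adjusted p = 0.000562). Car14, a membrane carbonic anhydrase, Rflnb, which binds filamin, and Hhatl had changes of -0.70 ± 0.09, -0.75 ± 0.10 and -0.79 ± 0.11 log2; Rflnb had 203 to 267 TPM at 24 h against 356 to 452 TPM in controls. Gsta2, a glutathione transferase, and Kl, which encodes klotho, fell by 0.655 and 0.721 on the log2 scale. Alpl, the bone alkaline phosphatase, and Acan, the cartilage proteoglycan aggrecan, fell by 0.569 and 0.466 on that scale. Crygn, Sult1a1, Tpbgl, Tprkb, Mdm1 and Map2k6, the others among the 15 largest falls that met the naming rule, had changes of -0.99 to -0.60 log2; Crygn lost its call in 11 of 22 alternatives and Mdm1 in 8 of 21, while Sult1a1 and Tpbgl lost it in none of 22.

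Calls among genes that define the cochlea's own cells stand beside shares of 3.78% higher and 0.662% lower over all genes tested. None of 18 hair cell genes tested was called in the joint fit, with a median of -0.01 log2. In the Prestin inputs 1 was lower (1.4% of all genes tested) and in the Sox2 inputs 0 (0.282%). Ocm, the calcium buffer of outer hair cells, had 39.3 to 73.3 TPM at 24 h against 49.1 to 63.5 TPM in controls. Slc26a5, the motor protein prestin, had 1.33 to 2.27 TPM at 24 h against 0.949 to 1.5 TPM in controls (adjusted p = 0.0838). With only the inputs at 24 h and control fitted, Slc26a5 was higher and Slc17a8 lower in limma (adjusted p = 0.02 and 0.0406). The summed hair cell level in Prestin was 339 to 377 TPM at 24 h and 427 to 553 TPM in controls. In Sox2 it was 417 to 496 TPM and 349 to 531 TPM. Supporting cell genes rose in 3 of 24 cases, Gjb2 by 0.40 ± 0.08 log2, the tectorial membrane gene Ceacam16 by 0.41 ± 0.08 and Otog by 0.48 ± 0.10. The adjusted p of Otog was 0.0592 without both Sox2 24 h inputs with muscle RNA. Within strains, 1 supporting cell gene was higher and 3 lower in Prestin, and 0 higher and 1 lower in Sox2. Over all genes tested, 2.37% were higher and 1.4% lower in Prestin, and 1.51% and 0.282% in Sox2. With only the inputs at 24 h and control fitted, Hes5 was lower (-1.56 log2, limma, adjusted p = 0.00157). The gene Sox2 was lower without Sox2 control replicate 4 (-0.639 log2, limma, adjusted p = 0.0241). The summed supporting cell level was 3650.5 to 4140.5 TPM at 24 h and 3076 to 3658 TPM in controls. Gjb2, whose levels are given above, held a large part of that sum, and the sum without Gjb2 was not computed. Of 20 fibrocyte and mesenchymal genes, Otos, Ucma and Dcn fell and Emilin2 rose; without Sox2 control replicate 1, Otos alone of the 3 kept its call, the adjusted p of Ucma was also 0.0513 without Prestin control replicate 1, and Dcn lost its call in 11 of 22 alternatives. None of 17 spiral ganglion neuron genes was called in the joint fit, although 6 were lower in the Prestin inputs (1.4% of all genes tested) and 0 in the Sox2 inputs (0.282%), with a joint median of -0.34 log2; Nefl, the light neurofilament, had 262 to 464 TPM at 24 h against 273 to 723 TPM in controls. Without Sox2 control replicate 4, the library with the lowest summed neuron level, Nefl, Nefm and Nefh were lower at 24 h (adjusted p = 0.0123, 0.0107 and 0.0325). The summed neuron level was 918 to 1467 TPM at 24 h and 865 to 2330.3 TPM in controls. Schwann and glial genes summed to 3056 to 4179.6 TPM at 24 h and 5271 to 7152 TPM in controls, and S100b held most of that. Of 15 endothelial genes, Ly6a, also an interferon-stimulated gene, rose by 1.95 ± 0.19 log2 and Eng, a TGF-beta co-receptor, by 0.65 ± 0.09 log2.

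Several families that rose lie side by side in the genome (GRCm38, GENCODE M21). All 4 tested Ifit genes within chr19:34550694-34650009 rose. On chr11:82035571-82305690, Ccl2, Ccl7 and Ccl12 rose and Ccl11 and Ccl8 did not pass; Ccl11, an eosinophil attractant, had a change of 0.22 ± 0.26 log2. Psmb8, Psmb9, Tap1 and Tap2 share chr17:34181987-34216321, and all 4 rose. In the Gbp cluster at chr3:142530342-142638008, Gbp2, Gbp3 and Gbp7 rose and Gbp2b did not pass. The 4 genes tested within chr5:90759360-90905938 (Cxcl1, Cxcl2, Pf4 and Ppbp) gave 0 calls, while Cxcl10 and Cxcl11, at chr5:92321347-92365485, both rose.

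Set against 6 h after noise, 2284 of 14204 genes (16.1%) were called, 1790 higher (12.6%) and 494 lower (3.48%) at 24 h. The split depended on scaling, with 1063 higher and 821 lower after median-of-ratios scaling and 1328 and 650 after rescaling without mitochondrial genes. Interferon targets were among the largest rises: all 13 GTPases and 47 of 50 antiviral genes were higher at 24 h than at 6 h, and 0 were lower. Ifit3 had 657, 483, 415, 448, 689 and 435 TPM at 24 h, against 69.8, 47.9 and 108 TPM in the Prestin inputs at 6 h and 38.3 and 67.3 TPM in the Sox2 inputs at 6 h. That was 3.04 ± 0.24 log2 higher (adjusted p = 3.44e-06), and 4 of the 5 inputs at 6 h were below the lowest control. Psmb8, Iigp1 and Ifi44 were higher at 24 h than at 6 h by 2.98, 2.88 and 2.89 log2. Cxcl10 averaged 209.5 TPM at 24 h and 24.8 TPM at 6 h, a change of 2.99 ± 0.40 log2, and Cd68 was 2.46 ± 0.26 log2 higher at 24 h. Glycam1 had the largest rise of the named genes, 3.93 ± 0.45 log2.

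Immediate early genes ran the other way between these times. Of 30 tested, 26 were lower at 24 h than at 6 h and 0 were higher, with a median of -1.06 log2. Fos had 18.9, 13.6, 9.8, 16.4, 18.2 and 20.6 TPM at 24 h, against 119.6, 117, 93.8, 131 and 176 TPM at 6 h. Its change was -2.97 ± 0.27 log2. Gdf15, a stress-induced member of the TGF-beta family, averaged 10.2 TPM at 24 h and 239.9 TPM at 6 h (-4.73 ± 0.35 log2). Gem and Maff were 3.13 and 2.68 log2 below their level at 6 h. Against control, 6 of the 30 were higher at 24 h, where 3.78% of all genes tested were. Among the 6 were Junb (1.40 ± 0.16 log2) and Maff (1.38 ± 0.22), and without Prestin 24 h replicate 1 the count was 3. Ccl2 and Ccl7 did not pass between the times, with changes of 0.37 ± 0.43 and -0.44 ± 0.40 log2. Socs3 averaged 44.8 TPM at 24 h and 84.8 TPM at 6 h (-0.97 ± 0.19 log2, adjusted p = 0.003). Both comparisons use the same 24 h libraries. The Sox2 inputs at 6 h list the fewest genes above 0, 15505 and 16439, and without them 1552 genes were called.

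**Figure D4:**
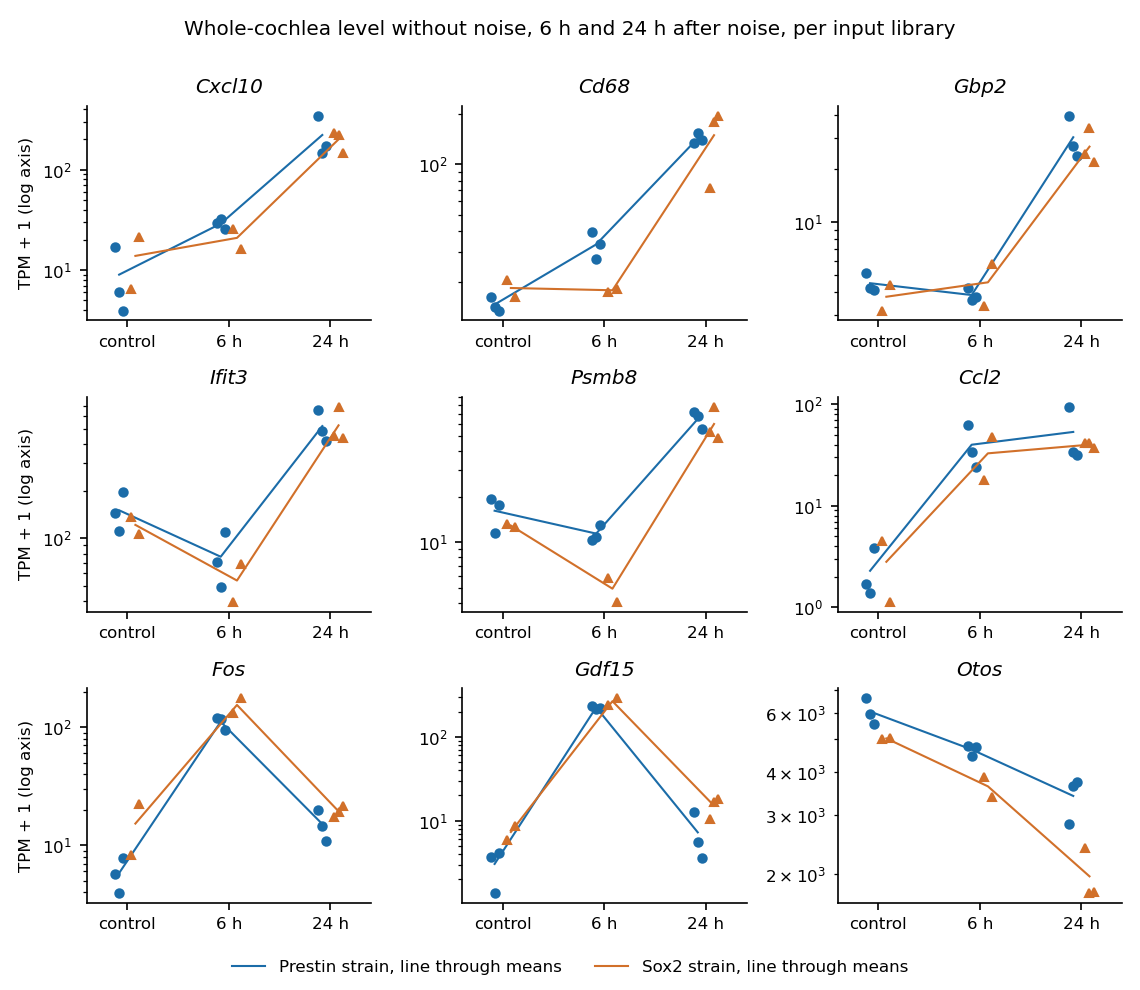
Level of 9 genes in every input library without noise, 6 h and 24 h after noise, as TPM + 1 on a log axis, with lines through the mean of each strain. Fos and Gdf15 are highest at 6 h, Cxcl10, Cd68, Gbp2, Ifit3 and Psmb8 are highest at 24 h, and Otos is lowest at 24 h.

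Changes within each strain came from a model of the 6 strain and noise groups fitted to all 16 inputs. In the Prestin inputs 535 genes (3.77%) were called at 24 h against control, 336 higher (2.37%) and 199 lower (1.4%), and in the Sox2 inputs 255 (1.8%), 215 higher (1.51%) and 40 lower (0.282%). Rescaling without mitochondrial genes gave 302 higher and 284 lower in Prestin, and median-of-ratios scaling 146 and 65 in Sox2. The counts depend on single libraries: leaving out any 1 of the 6 Prestin libraries gave 139 to 347 calls, and the Sox2 count dropped to 81 or 85 when either Sox2 control was omitted and to 108 when Sox2 24 h replicate 2 was. A fit on the Prestin inputs alone called 732 genes, 449 higher and 283 lower, and one on the Sox2 inputs alone 3, all higher. Cxcl10 rose by 4.79 ± 0.54 log2 in Prestin and 4.06 ± 0.60 log2 in Sox2, Cd68 by 3.29 ± 0.30 and 2.90 ± 0.33, and Gbp2 by 2.71 ± 0.25 and 2.81 ± 0.28. No gene passed in limma's test of the difference between the strains' changes, and 1107 genes (of 14204) had an unadjusted p below 0.05. Under other settings 2 genes passed with a pseudocount of 0.1, 6 without a filter and 36 without Sox2 control replicate 1. The smallest p values belonged to the predicted genes Gm14379, Gm5067 and Gm5597 and to Rab3ip and Limk1. For Rab3ip, an activator of Rab8, the change in Prestin minus that in Sox2 was -0.81 ± 0.13 log2 (adjusted p = 0.167), and for Limk1, a kinase of cofilin, -1.20 ± 0.21 log2 (adjusted p = 0.167). Serpina3n, with its low Prestin controls, gave 2.12 ± 0.53 log2 (adjusted p = 0.313).

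**Figure D5:**
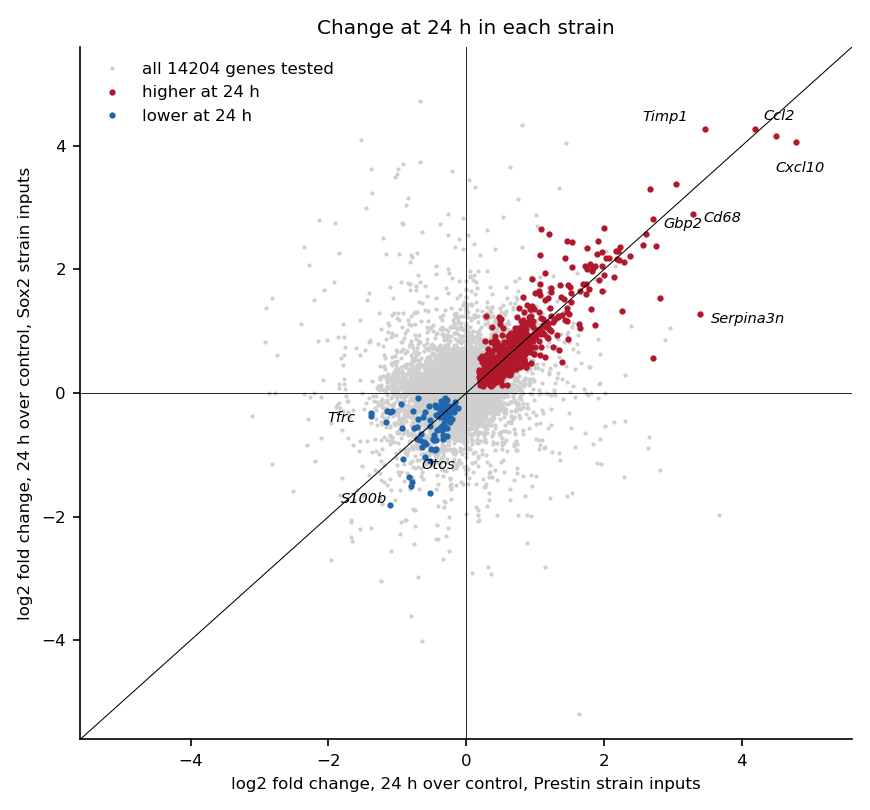
Log2 fold change at 24 h over control in the Prestin inputs (horizontal) and in the Sox2 inputs (vertical) for all 14204 genes tested; red and blue genes were higher or lower at 24 h in the joint fit, which uses both strains, and the diagonal marks equal change. The named chemokines, Timp1, Cd68 and Gbp2 lie in the upper right of the plot, and Serpina3n lies below the diagonal.

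The HA pull-downs made from the rest of the same homogenates are a separate measurement and are given as levels only. Cxcl10 had 425 to 868 TPM in the Prestin pull-downs at 24 h, against 7.42 to 10.8 TPM in the Prestin control pull-downs. In the Sox2 pull-downs it had 219.5 to 409 TPM at 24 h, against 10.1 to 14.5 TPM in controls. Socs3 had 366 to 708 TPM in the Prestin and 308 to 401 TPM in the Sox2 pull-downs at 24 h, against 26.8 to 114 and 56.5 to 76.5 TPM in the control pull-downs of those strains. Cd68 had 48.1 to 139 TPM in the Prestin and 48.5 to 94.04 TPM in the Sox2 pull-downs at 24 h, against 1.08 to 20.4 and 6.9 to 18.3 TPM in controls. For these 3 genes the pull-downs at 24 h lay above the control pull-downs of their strain in every library. At 24 h the Cd68 median was 74.5 TPM in the Prestin pull-downs and 139 TPM in the inputs, and 71.4 and 178.5 TPM in Sox2. For Cxcl10 the medians were 439 and 170 TPM in Prestin and 383 and 221 TPM in Sox2. For Socs3 they were 401 and 32.4 TPM, and 396 and 49.05 TPM. Otos, the fibrocyte gene, had 1663 to 2556 TPM in the Prestin pull-downs at 24 h. Which cells gave this RNA was not tested. The share of all genes that separate this way in the pull-downs was not computed. C1qa, which also rose in the inputs, had 62.2 to 72.2 TPM in the Prestin pull-downs at 24 h, against 32.9 to 53.1 TPM in controls. In the Sox2 pull-downs it had 55.7 to 62.2 TPM at 24 h, against 28.4 to 69.2 TPM in controls, and the groups overlap.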

How the data were processed

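RNA-seq of cochlear inputs and HA pull-downs used the NEBNext Ultra Directional kit, per the labels' protocols. Per the submitters' processing notes, TopHat and GRCm38 were used; which tool counted reads or computed TPM, with what annotation, version or strand setting, is not given in the sources used here. The authors deposited TPM values, 1 table per library, each adding up to 1000000, so read depth is unknown. Of 43947 genes in the Sox2 tables, the 39399 that the Prestin tables also hold were used.

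A gene was tested if it reached 1 TPM in at least 5 of the 16 inputs. The test was limma 3.58.1 (R 4.3.3; lmFit, eBayes with trend) on log2(TPM + 1) of all 16 inputs, with noise state and strain as terms. Single-strain changes and their difference came from a model of the 6 groups. The fit was also run on simulated data. These had independent spread in each library and neither pairing nor outlying libraries, so they do not test the effect of those features. Levels are means ± SD over libraries. Library measures were compared by an exact two-sided permutation within strains (p = 0.685 for genes above 0, 0.805 for mitochondrial share, 0.17 for the share of the 10 most abundant genes; 200 arrangements, smallest possible p 0.005).

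Members and gene lists were chosen with earlier results of these data known. Named genes were up to 15 of the largest rises and of the largest falls, with no overlap of libraries within either strain and at least 5 TPM on average where the gene was higher, the 3 markers, and up to 6 members of each of 40 lists with the smallest p. The text also gives other list members by role; some results are not reported here. Tables were built with Python 3.11.15. Motifs were searched in the RefSeq promoter table, which holds 27025 gene symbols. Alternatives are given in the closing section.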

Additional observations from a re-analysis of the deposited data

Results flagged for a closer look

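The Sox2 files list 4548 genes that the Prestin files do not, so these stood outside the comparison of both strains. In 4 of them every Sox2 input at 24 h was more than 2 times the highest Sox2 control, at a mean of at least 5 TPM at 24 h. Gm43797 averaged 83.1 ± 3.41 TPM in the 3 Sox2 inputs at 24 h (SD), against 21.4 and 11.45 TPM in the 2 Sox2 controls. Gm45102 averaged 32.7 ± 5.64 TPM at 24 h, against 4.08 and 13.6 TPM in controls. Gm4374 averaged 16.8 ± 13.3 TPM at 24 h, with 32.1 TPM in replicate 2, against 4.13 and 3.45 TPM in controls. AI506816 averaged 5.55 ± 0.977 TPM at 24 h, against 1.61 and 1.96 TPM in controls. These genes were not tested.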

How the results depend on the processing

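Joint calls (631 as reported) came to 1015 when only the inputs at 24 h and control were fitted and 995 without both Sox2 6 h inputs, an alternative chosen after seeing the data, as was leaving out both Sox2 24 h inputs with skeletal muscle RNA. Leaving out 1 library gave 443 to 654 joint calls, 139 to 347 of 535 in Prestin, 81 to 215 of 255 in Sox2, 0 to 36 for the difference between strains and 1724 to 2438 of 2284 for 24 h against 6 h. Prestin calls were 853 without both Sox2 6 h inputs. Sox2 calls were 3 on that strain's inputs alone, 65 without both inputs with muscle RNA and 383 without both 6 h inputs. The difference between strains gave 2 genes with a pseudocount of 0.1 and 6 with no filter. Calls between 24 h and 6 h were 1422 without both inputs with muscle RNA.

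Replicate numbers were not taken to pair the libraries, since no strain had every correlation above 0.1: those between same-numbered libraries ran from -0.052 to 0.096 in Prestin and from -0.036 to 0.031 in Sox2, and a library correlated best with its own number in 11 of 18 Prestin and 2 of 6 Sox2 cases, where an even share would be 6 of 18 in Prestin. Different-numbered Prestin libraries reached at most 0.063, so the check does not show that the Prestin libraries were unpaired. In Sox2 the control and 6 h groups hold 2 libraries each, which deviate from their mean by mirrored amounts, so it cannot decide there. With a replicate block, calls were 329 in the joint fit, 227 in Prestin, 8 in Sox2, 0 for the difference and 1016 between 24 h and 6 h. Of 204 called genes in the lists or among the named genes, 140 kept their call with the block and 64 lost it. Those that lost it include Kl, Lcn2, C1qa, Myd88, Stat2 and Serpina3n. Their adjusted p in limma with the block was 0.148, 0.116, 0.112, 0.0785, 0.0675 and 0.0553. Among the 204 genes no call reversed its direction under any of the 22 alternatives. Without both inputs with muscle RNA 170 of the 204 kept their call, and with median-of-ratios scaling 188. A filter at 5 TPM left 7 of the 11 called GTPases, since fewer members were tested. The depth behind TPM values is unknown, so no limit from counting can be given for genes near 0.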

Other observations

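The lists not described above gave few calls. Of 16 NRF2 and oxidative stress genes tested, Srxn1 and Nqo1 rose and Gsta4 fell, by 0.414 on the log2 scale; none of the 16 was higher without Sox2 control replicate 1, without replicate 4 or without both Sox2 24 h inputs with muscle RNA. Among 15 p53 targets Gadd45a rose, by 1.04 ± 0.23 log2, and its adjusted p was 0.053 without Prestin 24 h replicate 1 and 0.0722 without Sox2 control replicate 1. Pdk4, a glucocorticoid-responsive kinase of the pyruvate dehydrogenase complex, had 23.5 to 32.5 TPM at 24 h against 11.4 to 16.9 TPM in controls and rose by 0.91 ± 0.12 log2 (limma, adjusted p = 0.000424). In that list of 14 genes Zbtb16 and Klf9 fell, calls lost in 3 of 21 and 6 of 22 alternatives. Of 17 stria vascularis genes, Cldn11, a tight junction gene of basal cells, rose, a call lost in 13 of 22 alternatives. Ctsk, the cathepsin of osteoclasts, rose by 0.54 ± 0.07 log2. None of 7 erythroid, 8 skeletal muscle, 11 mitochondrially encoded and 4 sex-linked genes tested was called in the joint fit, against 4.44% of all genes tested. Lists this short cannot set 0 calls apart from that share. In the Prestin inputs 2 erythroid genes and 1 sex-linked gene were lower (1.4% of all genes tested). Some fell in limma under alternatives: Hba-a2 and Hbb-bs with the replicate block (adjusted p = 0.00935 and 0.0203) and Hbb-bt without Sox2 control replicate 4 (0.0334). With only the inputs at 24 h and control fitted, mt-Rnr2 was lower (limma, adjusted p = 0.043).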
